A study of Homo sapiens with 4 samples.

Results

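FOXK2 binding was examined at 38 genes of glycolysis, lactate formation, the pentose phosphate route and the tricarboxylic acid (TCA) cycle in OVCAR5, a human ovarian cancer cell line labelled high-grade serous and derived from ascites. The 38 genes were listed by symbol, and a gene's peaks were those rows of the deposited lists that carry its symbol as the nearest gene. The series holds 4 libraries: FOXK2 chromatin immunoprecipitation followed by sequencing (ChIP-seq) in 2 biological replicates, and 1 input library for each. All came from OVCAR5 cells in standard culture with no treatment or genetic change in the labels, so the design has a single condition. The input libraries were not analysed here, and the peak lists hold no expression, so the cell type could not be checked against its markers. Of the 12471 peaks of replicate 1, 22 were assigned to these genes, and of the 27281 peaks of replicate 2, 43 were.

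Glycolysis splits glucose into pyruvate, lactate dehydrogenase turns pyruvate into lactate, the pentose phosphate route makes NADPH and ribose phosphate, and the TCA cycle oxidises acetyl groups in mitochondria. FOXK2 is a forkhead transcription factor, and forkhead factors recognise DNA with a core close to TGTTTAC. FOXK1 and FOXK2 are known from other cell types as factors linked to aerobic glycolysis, in which glucose is turned to lactate although oxygen is present. The question that the lists can address is where FOXK2 peaks lie at these enzyme genes, and how far the replicates share them.

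The forkhead heptamers found at the overlapping peaks are printed first. They are the copies of TGTTTAC, on either strand, that lay within 100 bp of the centre of at least 1 peak of an overlapping pair. Each is given 5′ to 3′ on the strand that reads TGTTTAC, with the heptamer in capitals and its flanks in lower case, and its position in build hg38 follows in the text on each gene. There were 7 such sites at 6 genes, and OGDH held 2 of them in the same peak.
HK2, intron 2: tctagattggcaTGTTTACctaccactccc
OGDH, intron 1, first site: gaatatattgctTGTTTACctttaatttgt
OGDH, intron 1, second site: aatatgttctgcTGTTTACttttgctgacc
SUCLG1, promoter: acttcatctctTGTTTACcttttgactctg
TALDO1, intron 1: ctgggcttgagtTGTTTACattggagagaa
PFKL, upstream: aaacacagagcTGTTTACagccgagcactg
TKT, intron 1: gagttacaccaTGTTTACattgtaatgtct

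FOXK2 peaks were found at these genes about as often as at any protein-coding gene. In replicate 1, 14 of the 38 genes had a peak (36.8%), beside 31.3% of the 20052 protein-coding genes of RefSeq. In replicate 2, 23 did (60.5%, beside 51.7%). A peak in both lists was assigned to 12 genes (31.6%, beside 28.6%), and for 10 of them a peak of one replicate overlapped a peak of the other by at least 1 bp (26.3%, beside 25.5%). Promoter peaks, by the deposited annotation class, were assigned to 6 genes in replicate 1 (15.8%, beside 11.9%), to 11 in replicate 2 (28.9%, beside 21.2%) and to 4 in both (10.5%, beside 9.30%). Each share lies near its background and is not a result about the group as a whole. Counted by position rather than by name, 11 genes (28.9%) had a peak centre within 1000 bp of their GENCODE gene body in both lists, beside 29.2% of 20046 protein-coding genes. Of these, 8 were among the 12 above. ACO1, GPI, PFKL and PKM dropped out, and IDH1, LDHA and PFKFB2 came in.

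**Figure D1:**
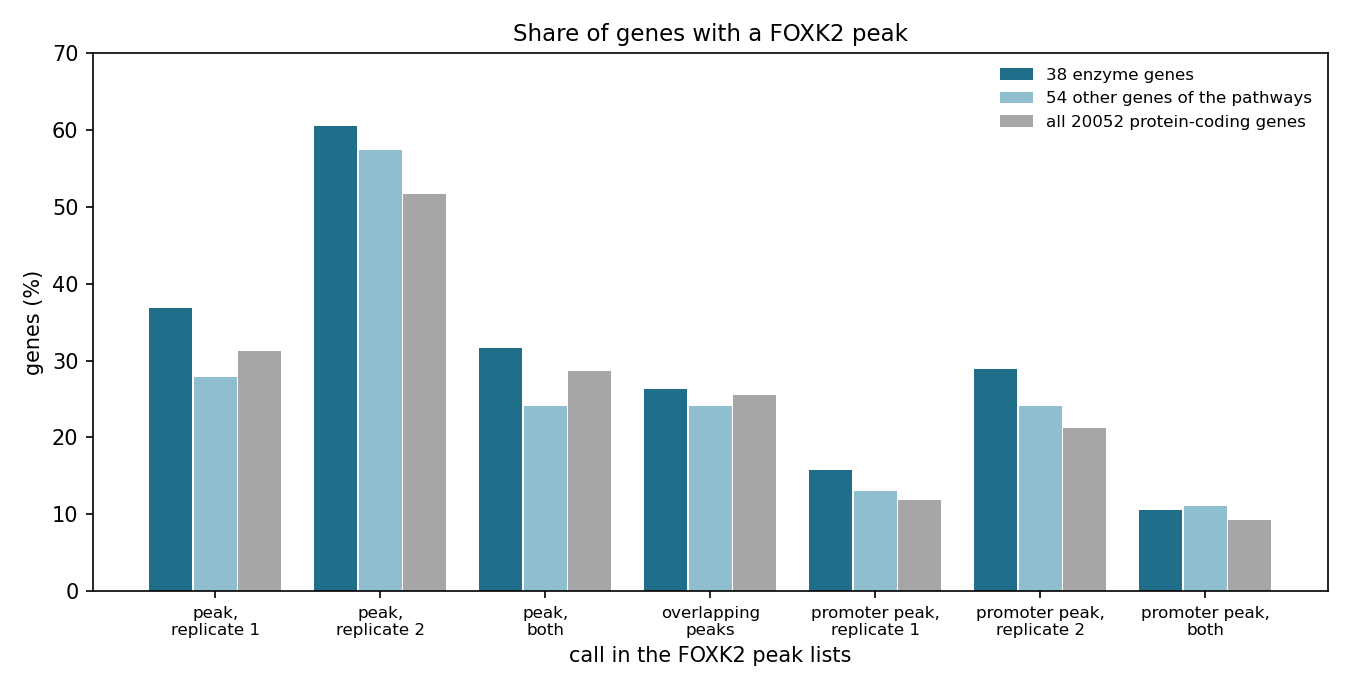
Share of genes (%) with a FOXK2 peak under 7 calls, for the 38 enzyme genes, 54 other genes of the same pathways and all 20052 protein-coding genes. The bars of the 38 genes stand near those of all genes, for example 31.6% and 28.6% for a peak in both replicates.

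The 10 genes with overlapping peaks were HK2, GPI, PFKL and PFKP of glycolysis, TKT and TALDO1 of the pentose phosphate route, and OGDH, SUCLG1, SDHD and MDH1 of the TCA cycle. Over all protein-coding genes these shares were 25.5% for overlapping peaks and 9.30% for promoter peaks in both lists. Among 20 genes of glycolysis and lactate formation, 4 had overlapping peaks (20.0%) and 0 had a promoter peak in both lists. Among the 15 TCA genes, 4 had overlapping peaks (26.7%), near the background. These same 4 had a promoter peak in both lists (26.7%), a share above its background of 9.30%. Of the 3 pentose phosphate genes, 2 had overlapping peaks and 0 had a promoter peak in both lists. Neither the differences between the routes nor those from all genes were tested.

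The peak score was the measure of strength. HOMER, the peak caller, gives it as a tag count (reads counted at the peak) scaled to the library, so scores were ranked only within their own list and turned into percentiles, where 100 is the strongest peak. Scores rose in whole steps of 0.1886 in replicate 1 and 0.1487 in replicate 2, each step being 1 tag. The weakest peak of each whole list then held 16 and 21 tags. Exact Poisson intervals at the level of 95% for a peak's tags cover counting error only. Over the genes with a peak, the median percentile of a gene's best peak was 57.3 in replicate 1 (14 genes) and 61.9 in replicate 2 (23 genes). Over all protein-coding genes with a peak it was 57.3 and 63.0, so the enzyme genes lay close to all genes in strength. Over the 54 other pathway genes described at the end it was lower, at 34.8 (15 genes) and 40.2 (31 genes), and this difference was not tested.

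**Figure D2:**
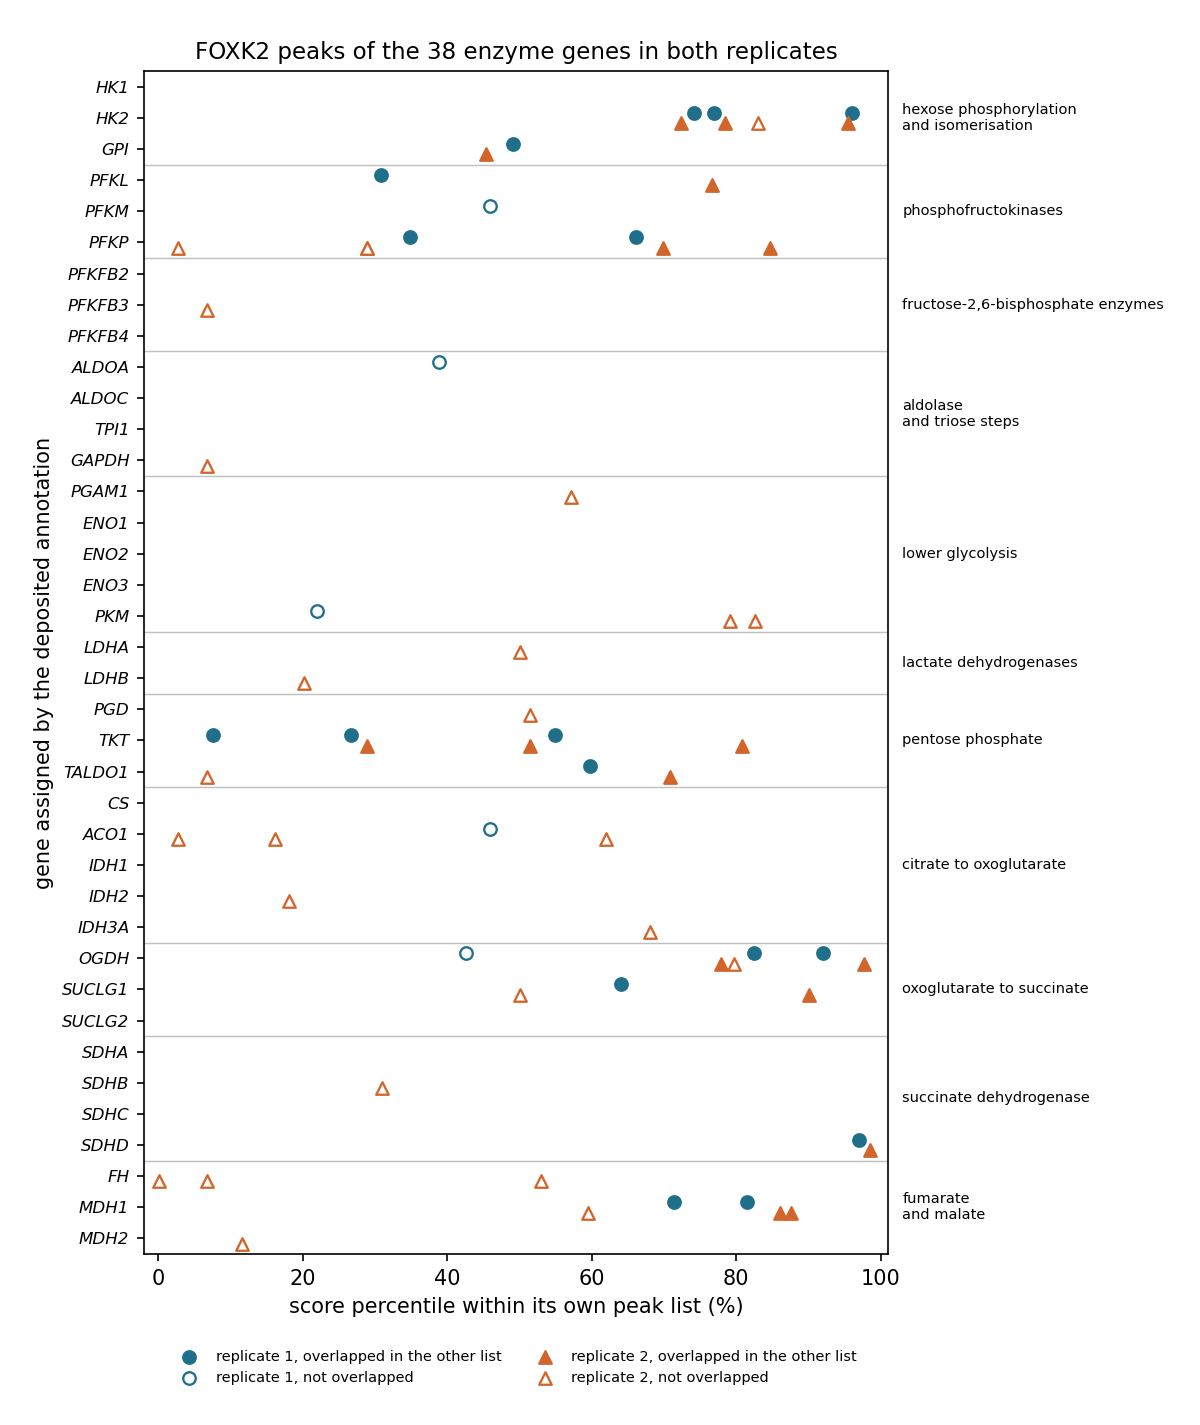
Every FOXK2 peak of the 38 genes by its score percentile within its own list (%), with circles for replicate 1 and triangles for replicate 2. Filled marks overlap a peak of the other list. Strong filled marks sit at SDHD, HK2 and OGDH, rows without a mark are the 13 genes with no assigned peak, and 2 PFKP peaks of replicate 2 share the mark at 28.9.

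SDHD carried the strongest peak of the group in both replicates. It encodes a membrane anchor subunit of succinate dehydrogenase, the enzyme that feeds electrons from succinate into the respiratory chain. The peak covered chr11:112086728-112086938 in replicate 1, with score 18.1 and rank 363 of 12471 (percentile 97.0). In replicate 2 it covered chr11:112086699-112086955, with score 33.3 and rank 418 of 27281 (percentile 98.5). These scores stand for 96 tags (77.8 to 117) and 224 tags (196 to 255), and the peak was thus near the top of each list. The centres lay 9 and 3 bp downstream of an SDHD transcript start. On the other strand, the start of TIMM8B, which encodes a chaperone of mitochondrial protein import, lay 35 and 29 bp from the centres, so the same peak sits at a promoter shared by both genes and cannot be given to either alone.

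The SDHD peak held no TGTTTAC within 100 bp of either centre. It held 2 sites of the looser core TGTTTNC, in which the sixth base is free. They are shown because this was the strongest peak, with the core in capitals.
SDHD, chr11:112086746-112086775: ttccgacagctgTGTTTGCgcatgcgcgac
SDHD, chr11:112086814-112086843: tttcctcttcccTGTTTTCtttcgtcgtcg
The second of them lay 4 bp from the centre in replicate 1 and 2 bp in replicate 2, and the first lay 72 and 66 bp away. The peak also held 1 copy of CCGGAAG, a core recognised by ETS factors, in either window.

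The other subunits of succinate dehydrogenase had weaker peaks or no assigned peak. SDHB, which encodes the iron-sulphur subunit, had a promoter peak in replicate 2 alone (chr1:17054019-17054275, score 5.65, percentile 30.9, 23 bp from the start). SDHC, the other membrane anchor, had no peak in either list. SDHA, the flavoprotein subunit, had no assigned peak, although a peak of replicate 1 lies at its promoter under the name of a neighbouring gene.

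HK2 had the strongest peak among the glycolysis genes, and it lay far inside the gene. HK2 encodes hexokinase 2, which traps glucose in the cell as glucose 6-phosphate and is the hexokinase often raised in tumours. The strongest of its peaks covered chr2:74856325-74856535 in replicate 1 (score 16, rank 498, percentile 96.0, 85 tags with an interval of 67.9 to 105). In replicate 2 it covered chr2:74856330-74856586 (score 21.7, rank 1246, percentile 95.4, 146 tags with an interval of 123 to 172). It was in intron 2 of HK2, 23775 and 23803 bp downstream of the start site. The heptamer at chr2:74856451-74856457 lay 24 bp from the centre of replicate 1 and 4 bp from the centre of replicate 2. The 206 bases that both peaks cover, chr2:74856330-74856535 on the plus strand, are shown because they held the strongest glycolytic peak, with each TGTTTNC on that strand in capitals.
HK2, intron 2: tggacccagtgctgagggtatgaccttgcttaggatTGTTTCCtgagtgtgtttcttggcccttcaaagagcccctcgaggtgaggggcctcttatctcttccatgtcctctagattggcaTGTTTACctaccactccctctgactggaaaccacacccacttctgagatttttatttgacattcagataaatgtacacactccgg

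HK2 had 2 further overlapping pairs in its introns, and no promoter peak in either list. The pair in intron 1 (chr2:74851245-74851455 and chr2:74851319-74851575) scored 8.49 and 10.3, at percentiles 76.9 and 72.4. The pair in intron 3 (chr2:74867999-74868209 and chr2:74868068-74868324) scored 8.11 and 11.6, at percentiles 74.2 and 78.5. Neither pair held TGTTTAC, and their centres were 97 and 92 bp apart, farther than for any other pair of the group. Replicate 2 had another HK2 peak in intron 2 (score 12.9, percentile 83.0) that replicate 1 lacked. HK1, the hexokinase found in most tissues, had no assigned peak.

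At the next steps of upper glycolysis the overlapping peaks were weaker than the strongest one of HK2. GPI, which encodes glucose-6-phosphate isomerase, was the nearest gene of a pair at chr19:34316703-34316913 and chr19:34316679-34316935, with scores of 5.85 and 6.84 (percentiles 49.1 and 45.3). That pair lay 47932 and 47933 bp upstream of GPI, in intron 2 of GARRE1 and in a MIRc repeat, so the assignment rests on distance alone.

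The 3 phosphofructokinases differed in where their peaks lay. These enzymes make fructose 1,6-bisphosphate, the committed step of glycolysis, and are named for liver (PFKL), muscle (PFKM) and platelet (PFKP). PFKL had 1 pair at chr21:44297720-44297930 and chr21:44297680-44297936, scoring 4.9 and 11.2 at percentiles 30.8 and 76.6. It lay 2209 and 2226 bp upstream of PFKL, in exon 14 and the 3′ untranslated region of AIRE, and held TGTTTAC at chr21:44297855-44297861, 33 and 50 bp from the centres. PFKP had a pair in intron 2 of its canonical GENCODE transcript (chr10:3095466-3095676 and chr10:3095394-3095650, scores 7.17 and 13.5, percentiles 66.1 and 84.6) and a weaker one in the same intron (chr10:3091535-3091745 and chr10:3091518-3091774, scores 5.09 and 9.82). Both PFKP pairs were in repeats, the stronger in a MARNA element with 2 and 3 copies of TGANTCA, the AP-1 site, and the weaker in an AluSz element. PFKM had a promoter peak in replicate 1 alone (chr12:48106098-48106308, score 5.66, percentile 45.9), with its centre 59 bp from a PFKM start and 124 bp from a start of SENP1 on the other strand.

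From aldolase to lactate, the peaks assigned by name came from a single list or did not overlap. An overlapping pair at the 3′ end of LDHA, named for LDHC, is given under other observations. ALDOA, the main glycolytic aldolase, had a promoter peak in replicate 1 alone (chr16:30065286-30065496, score 5.28, percentile 38.9). PKM encodes pyruvate kinase M, which makes pyruvate. It had 2 peaks in replicate 2, in the 5′ untranslated region of its first exon (chr15:72231234-72231490, score 12.8, percentile 82.6) and at its promoter (chr15:72231828-72232084, score 11.7, percentile 79.1). The only PKM peak of replicate 1 lay 6372 bp upstream, with score 4.53 and percentile 21.9, and overlapped neither. Among the peaks of the group that a single list held, the stronger PKM peak came after the one in HK2 intron 2. In replicate 2 alone, PGAM1, which encodes phosphoglycerate mutase 1, had a promoter peak of score 8.03 (percentile 57.1). Its centre lay 149 bp from the GENCODE start of PGAM1 and 4 bp from one of RRP12 on the other strand, so it is at a shared promoter. LDHA, which encodes the lactate dehydrogenase subunit favoured in lactate formation, had one of score 7.29 (chr11:18394331-18394587, rank 13458). The LDHA peak held 2 copies of CACGTG, the E-box that MYC and HIF-1 can recognise, and no TGTTTAC.

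Peaks of GAPDH, LDHB and PFKFB3 were weak and came from replicate 2. GAPDH, glyceraldehyde-3-phosphate dehydrogenase, was the nearest gene of a peak with score 4.02 in an intron of the neighbouring gene, 5528 bp from its start. LDHB, the other lactate dehydrogenase subunit, had a peak with score 4.91 and 1 TGTTTAC, 9166 bp upstream of its deposited start. The deposited lists class that peak as intergenic, while in GENCODE it lies in the span of LDHB, outside its canonical transcript. PFKFB3, which makes fructose 2,6-bisphosphate, the activator of phosphofructokinase, had a peak with score 4.02 whose classes differ in the same way. No peak was assigned to ENO1, ENO2 or ENO3, the enolases, to ALDOC or TPI1, or to PFKFB2 or PFKFB4.

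In the pentose phosphate route, TKT and TALDO1 had overlapping peaks. TKT encodes transketolase and TALDO1 transaldolase, the sugar-exchanging enzymes that link the route back to glycolysis. TKT had 3 pairs. The strongest by mean percentile was intergenic, 14130 and 14085 bp upstream (chr3:53270139-53270349 and chr3:53270071-53270327), and scored 4.72 in replicate 1 and 12.2 in replicate 2, at percentiles 26.7 and 80.8. The widest gap in percentile between the replicates was at this pair. The pair in intron 1 (chr3:53252417-53252627 and chr3:53252450-53252706, scores 6.23 and 7.44, percentiles 54.9 and 51.4) held TGTTTAC at chr3:53252585-53252591, 66 and 10 bp from the centres. The pair in intron 4 was the weakest of the group, with scores of 3.96 and 5.5.

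TALDO1 had a pair in intron 1, 846 and 929 bp from its start (chr11:748173-748383 and chr11:748233-748489, scores 6.6 and 9.96, percentiles 59.7 and 70.8). Its TGTTTAC at chr11:748386-748392 was 28 bp from the centre of replicate 2 but 111 bp from that of replicate 1, just outside the peak there. PGD, 6-phosphogluconate dehydrogenase, which makes NADPH, had a promoter peak in replicate 2 alone (chr1:10398810-10399066, score 7.44, percentile 51.4).

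Among the TCA genes of the group, the OGDH promoter held the strongest peak after SDHD in both lists. OGDH encodes the first subunit of the oxoglutarate dehydrogenase complex, which turns 2-oxoglutarate into succinyl-CoA. Its promoter peak covered chr7:44606471-44606681 in replicate 1 (score 12.6, rank 974, percentile 92.0, 67 tags with an interval of 51.9 to 85.1). In replicate 2 it covered chr7:44606405-44606661 (score 28.3, rank 630, percentile 97.7, 190 tags with an interval of 164 to 219). The centres were 54 and 11 bp from the start site, and none of the forkhead, AP-1, E-box, ETS or CCAAT letters searched lay within 100 bp of either centre.

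A second OGDH pair, in intron 1, did hold the heptamer. It covered chr7:44622402-44622612 and chr7:44622357-44622613, 15985 and 15963 bp from the start, with scores of 9.43 and 11.5 at percentiles 82.5 and 77.9. Its 2 copies lay at chr7:44622418-44622424 and chr7:44622489-44622495, and the second was 15 and 7 bp from the centres. The 211 bases common to both peaks, the whole of the replicate 1 peak on the plus strand, are shown as the only stretch of the group with more than 1 TGTTTAC, again with TGTTTNC in capitals.
OGDH, intron 1: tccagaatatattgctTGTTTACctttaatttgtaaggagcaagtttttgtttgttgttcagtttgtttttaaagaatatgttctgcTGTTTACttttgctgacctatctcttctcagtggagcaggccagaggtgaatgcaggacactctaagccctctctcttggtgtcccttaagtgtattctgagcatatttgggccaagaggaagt
OGDH had a further intronic peak in each list, with scores of 5.47 in replicate 1 and 11.9 in replicate 2, at different places.

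SUCLG1 was the only gene with TGTTTAC in a promoter peak of both lists. It encodes the alpha subunit of succinyl-CoA ligase, which makes succinate and a nucleoside triphosphate. The peak covered chr2:84459929-84460139 in replicate 1 (score 6.98, percentile 64.0, 37 tags with an interval of 26.1 to 51.0) and chr2:84459960-84460216 in replicate 2 (score 16.4, percentile 90.0, 110 tags with an interval of 90.4 to 133). By the deposited annotation it lay 572 and 626 bp upstream of the start, while an outer GENCODE transcript of SUCLG1 starts 11 and 43 bp from the centres. The same bases fall in the first exon of a long noncoding RNA on the other strand. The heptamer at chr2:84460088-84460094 was 57 bp from the centre in replicate 1 and 3 bp in replicate 2. A weaker peak over the first exon of SUCLG1 was called in replicate 2 alone (score 7.29, rank 13458). SUCLG2, the GTP-specific beta subunit, had no assigned peak.

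MDH1 had 2 pairs, neither with TGTTTAC. It encodes cytosolic malate dehydrogenase, which takes part in the malate-aspartate shuttle. The promoter pair (chr2:63588560-63588770 and chr2:63588489-63588745) scored 7.73 and 14.9, at percentiles 71.4 and 87.6, with centres 56 and 8 bp from the start. Starts of WDPCP on the other strand lay 134 and 99 bp from these centres, so this peak too is at a shared promoter. The stronger pair by mean percentile (chr2:63553428-63553638 and chr2:63553471-63553727, scores 9.24 and 14.1, percentiles 81.5 and 86.0) lay 35076 and 35010 bp upstream of MDH1, in intron 1 of WDPCP. Replicate 2 alone had a further peak named for MDH1 with 1 TGTTTAC (score 8.33, percentile 59.5), in an LTR19C repeat that the lists class as intergenic and GENCODE places in the span of WDPCP.

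The remaining TCA genes had peaks in replicate 2 alone, peaks that did not overlap, or no assigned peak. IDH3A, the catalytic subunit of NAD-dependent isocitrate dehydrogenase, had a promoter peak of score 9.52 (percentile 68.0), and FH, fumarase, one of score 7.58 (percentile 52.9). IDH2, mitochondrial isocitrate dehydrogenase, and MDH2, mitochondrial malate dehydrogenase, were nearest to intergenic peaks with scores of 4.76 and 4.31. ACO1, the cytosolic aconitase that doubles as an iron sensor, had 1 peak in replicate 1 (score 5.66, intron 4). In replicate 2 it had 3 intergenic peaks with scores from 3.72 to 8.63, and none overlapped. The peak of score 8.63, its best in replicate 2 (percentile 61.9), lay 476189 bp upstream in an LTR3B repeat. That assignment rests on distance alone. CS, citrate synthase, and IDH1, cytosolic isocitrate dehydrogenase, had no assigned peak.

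The shares of overlapped peaks lay near those of the lists as a whole. Of the 22 peaks of replicate 1, 17 overlapped a peak of replicate 2 (77.3%, Wilson 95% interval 56.6% to 89.9%), beside 74.9% of its whole list. Of the 43 peaks of replicate 2, 17 overlapped a peak of replicate 1 (39.5%, 26.4% to 54.4%), beside 34.2% of its list. With lists of equal length the share of the group was 63.6% in both replicates, beside 7480 of 12471 and 7479 of 12471 peaks of the lists (60.0% in each). The overlapped peaks had median scores of 7.17 in replicate 1 and 11.6 in replicate 2. Those without a partner had medians of 5.47 (5 peaks) and 5.58 (26 peaks), and reached at most 5.66 and 12.9. In every pair both peaks carried the same gene name, and the centres were a median of 45 bp apart (1 to 97), beside 29 bp over all pairs of the lists. Replicate 2 gave the higher percentile in 12 of the 17 pairs (70.6%), beside 89.4% of all overlapping pairs.

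**Figure D3:**
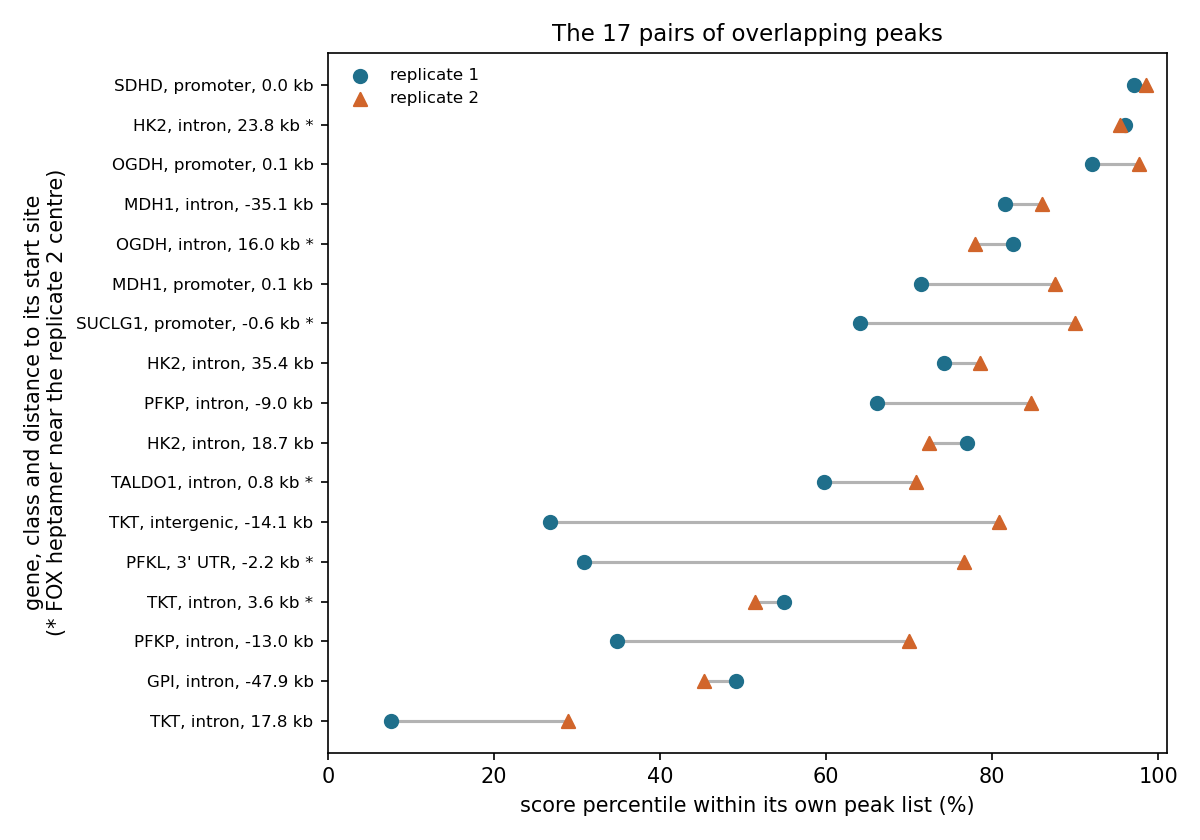
Score percentiles (%) of the 17 overlapping pairs in replicate 1 (circles) and replicate 2 (triangles), ordered by their mean, with the gene, the annotation class and the distance of the replicate 1 centre from the start site in kb. Asterisks mark pairs with TGTTTAC within 100 bp of the replicate 2 centre. The SDHD, HK2 intron 2 and OGDH promoter pairs lie at 92.0 or higher in both, and the intergenic TKT pair runs from 26.7 to 80.8.

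By place, 11 of the 17 pairs were intronic, 4 were at promoters and 2 were elsewhere. Introns held 59.1% of the group's peaks in replicate 1 (13 of 22, Wilson 95% interval 38.7% to 76.7%), beside 39.0% of the list, and 34.9% in replicate 2 (15 of 43, 22.4% to 49.8%), beside 40.6%. Intergenic peaks made up 9.09% in replicate 1 (2 of 22, 2.53% to 27.8%), beside 34.1%, and 32.6% in replicate 2 (14 of 43, 20.5% to 47.5%), beside 36.5%. The low intergenic share of replicate 1 was thus not seen in replicate 2. Promoters held 27.3% (6 of 22) and 25.6% (11 of 43), beside 2709 of 12471 peaks and 4910 of 27281 peaks of the lists (21.7% and 18.0%), and both backgrounds lay within the intervals of 13.2% to 48.2% and 14.9% to 40.2%. Focus ratios, the fraction of a peak's tags that lie on the side expected of their strand, had medians of 0.777 and 0.750, beside 0.758 and 0.755 over the lists.

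In windows reaching 100 bp to either side of the centre, and on either strand, TGTTTAC lay in 5 of the 22 peaks of replicate 1 (22.7%, Wilson 95% interval 10.1% to 43.4%), beside 30.5% of the list, and in 10 of the 43 of replicate 2 (23.3%, 13.2% to 37.7%), beside 28.2%. Among the overlapped peaks it lay in 5 of 17 (29.4%, 13.3% to 53.1%) and 6 of 17 (35.3%, 17.3% to 58.7%), beside 34.3% and 34.9% of all overlapped peaks. At promoters it lay in 1 of 6 peaks (16.7%) and 1 of 11 peaks (9.09%), both at SUCLG1, beside 14.4% and 10.9% of all promoter peaks. Of the 38 genes, 35 matched 59 RefSeq promoters of build GRCh38.p14, each running from 250 bases before to 50 after a start, and none of those 59 held TGTTTAC, beside 2.85% of 22198 promoters of protein-coding genes. PFKFB2, OGDH and SDHC were not among them. A match is a run of letters and does not by itself mark a bound site.

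**Figure D4:**
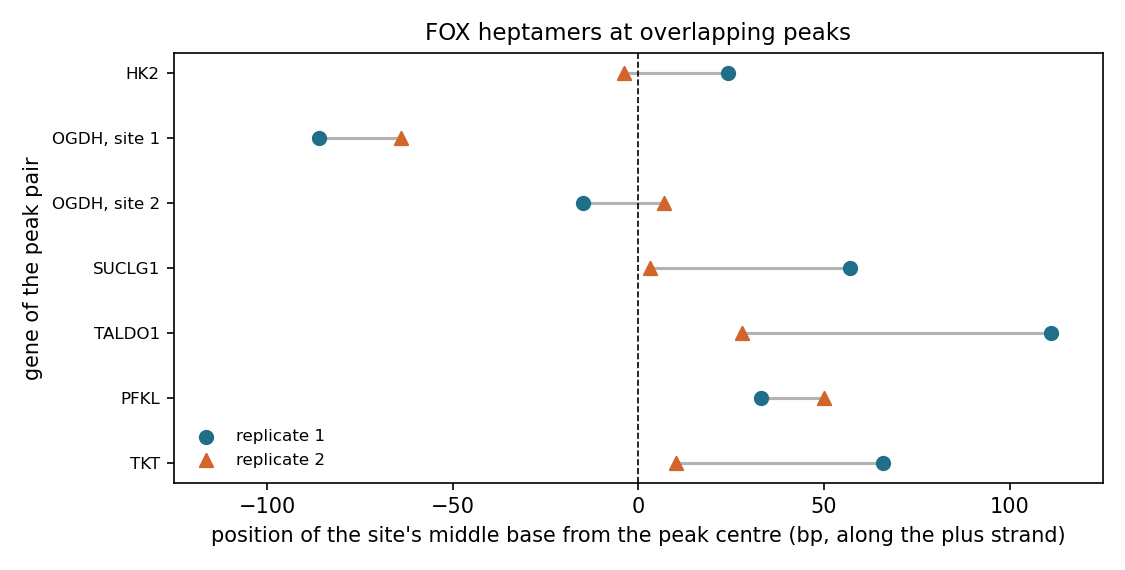
Distance (bp, along the plus strand) from the peak centre to the middle of each of the 7 TGTTTAC copies at overlapping pairs, with circles for replicate 1 and triangles for replicate 2. The triangles lie nearer the centre line, at a median of 10 bp, except at PFKL, where the circle is nearer.

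The copies within 100 bp of the centre lay a median of 45 bp away in replicate 1 (6 copies, 15 to 86) and 10 bp in replicate 2 (7 copies, 3 to 64). Over all overlapped peaks, copies chosen in the same way lay at medians of 21 bp in replicate 1 and 16 bp in replicate 2. For all but the PFKL copy, the centre of replicate 2 was the nearer.

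Of the other motifs, CCGGAAG and CCAAT had unlike shares in the replicates, with overlapping intervals. CCGGAAG, the ETS core, lay in 5 of 22 peaks of replicate 1 (22.7%, Wilson 95% interval 10.1% to 43.4%), beside 5.69% of the list, which lies below that interval. It lay in 4 of 43 of replicate 2 (9.30%, 3.68% to 21.6%), beside 4.90%, which lies inside it. The 5 peaks of replicate 1 were the promoter peaks of PFKM, ALDOA and SDHD, the intron 1 peak of HK2 and the ACO1 peak, and only those of HK2 and SDHD overlapped a peak of replicate 2. TGANTCA lay in 22.7% and 25.6%, beside 20.8% and 21.0%. CCAAT lay in 13.6% (4.75% to 33.3%) and 37.2% (24.4% to 52.1%), beside 25.0% and 24.4%, so the replicates fell on opposite sides of their lists. CACGTG lay in 0 of 22 peaks of replicate 1 (Wilson 95% interval up to 14.9%), beside 6.02% of the list. In replicate 2 it lay in 2 of 43 (4.65%), beside 5.21%, at LDHA and in a weak peak named for FH.

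The other genes of these pathways were 54 isozymes, gluconeogenic enzymes, remaining subunits and assembly factors. With the full lists, a peak was assigned to 15 in replicate 1 (27.8%), to 31 in replicate 2 (57.4%) and to 13 in both (24.1%). These shares were 36.8%, 60.5% and 31.6% over the 38 genes, and 31.3%, 51.7% and 28.6% over all protein-coding genes. All 13 had overlapping peaks. With lists of equal length the count in both was 8 of these 54 genes (14.8%) and 11 of the 38 (28.9%), beside 23.3% of all protein-coding genes. In the higher-scoring part of each list it was 6 (11.1%) and 8 (21.1%), beside 17.7%. These differences were not tested. Promoter peaks in both lists were found at 6 of the 54 (11.1%), beside 10.5% of the 38 genes and 9.30% of all protein-coding genes. The strongest promoter peaks were at DLST and IDH3B of the TCA cycle. DLST, which encodes the succinyltransferase core of the same complex as OGDH, had a promoter peak with score 15.3 (rank 566, percentile 95.4) in replicate 1 and 25 (rank 869, percentile 96.8) in replicate 2. IDH3B, a subunit of the same isocitrate dehydrogenase as IDH3A, had one with 11.3 (rank 1313, percentile 89.2) and 27.1 (rank 716, percentile 97.4). SDHAF1, an assembly factor of succinate dehydrogenase, had a weak promoter peak in both lists (scores 4.34 and 6.1). ME3, a mitochondrial malic enzyme, had 4 and 7 peaks, the best in an intron with scores of 13 and 22.3. Among the other glycolysis genes, the strongest was an intronic pair named for LDHAL6B, a lactate dehydrogenase-like gene, with scores of 10.8 and 19.3 (percentiles 87.6 and 93.7). It lay 77044 and 77074 bp from the LDHAL6B start and carries that name only as the nearest gene. ADPGK, the ADP-dependent glucokinase, had a promoter peak of 8.68 and 14.3, and HKDC1, a hexokinase-like enzyme, a weak one of 5.09 and 6.99. PGK1, phosphoglycerate kinase 1, had a promoter peak in replicate 2 alone (score 5.35).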

How the data were processed

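The deposited peak lists of both FOXK2 ChIP-seq replicates were used as given, with no further threshold. According to the submitters' processing notes, the authors mapped single-end reads to hg38 with Bowtie2 2.2.6 and called peaks with HOMER 4.10. The paper describes tests of FOXK2 peaks against input. Whether the deposited lists were called with input or filtered by such a test is not given in the sources used here. Each deposited list holds a peak score, which is HOMER's scaled tag count, and the deposited focus ratio is a fraction of tags. Lists held 12471 and 27281 peaks, 210 and 256 bp long. If the scores were scaled to HOMER's default of 10000000 tags, their steps imply 53000000 and 67200000 tags.

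Peaks were joined to genes through the deposited nearest-gene names. Positions are as the lists give them. Overlap meant at least 1 bp, and shares carry Wilson intervals at 95%, which cover counting error only. Motifs were looked for in the hg38 bases up to 100 bp from each centre, on either strand. GENCODE 44 placed peaks in exons and introns, and RefSeq supplied promoters and the 20052 background genes, with all 38 genes matched. RefSeq promoters were identical to the hg38 sequence in 35116 of 35116 cases. With 1 condition and 2 replicates no test between conditions was possible. The genes and lists were chosen with earlier results of these data known. Genes described in full were to be the 12 whose best overlapping pair had the highest mean percentile, with any holding TGTTTAC in an overlapping peak. Only 10 genes had such a pair, so these are all of them. Their pairs are all given, but weak peaks of replicate 2 without a partner were left out. These were at PFKP (scores from 3.72 to 5.5) and TALDO1 (score 4.02). Other genes are given more briefly. The steps for overlap and for motifs recovered the known answers when tested on simulated data. Alternatives were other list lengths, distances, overlaps, windows and gene models. Python 3.11.15, numpy 2.4.6, pandas 2.3.3 and matplotlib 3.10.9 were used.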

Additional observations from a re-analysis of the deposited data

How the results depend on the processing

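Of 44 values under alternative settings, 33 stayed within the limits set for counts, intervals or spread. The limits for shares were the Wilson intervals of the main values, which are wide here. The count of 33 is therefore only a loose guide to stability. Within the limits for counts, the 12 genes with a peak in both lists fell to 8 in the higher-scoring part of each list and to 9 within 10000 bp of the start. The counts of genes rose when one list was used alone. Without replicate 1 or 2, a peak was assigned to 14 to 23 genes in place of 12, a promoter peak to 6 to 11 in place of 4, and a peak to 15 to 31 of the other pathway genes in place of 13. The median best percentile of 59.6 ran from 57.3 to 61.9 without one replicate. Its limit was set by the spread of these same replicate values, so both fall within it by construction. No overlap count exists for a single list. In the higher-scoring part of each list, the overlapped share of replicate 1 became 92.3% (87.5% over all peaks of that part), the median percentile 72.4 and the count of other pathway genes 6. With lists of equal length, the overlapped share became 63.6% in both replicates, down from 77.3% in replicate 1 and up from 39.5% in replicate 2, the median percentile 69.9 and the count of other pathway genes 8. These settings remove the weaker peaks by construction. Within 10000 bp of the start, 8 of the other pathway genes remained counted. The looser core TGTTTNC raised the motif share of overlapping peaks from 35.3% to 58.8%. No paired analysis was made, because inputs, which carry the same replicate numbers, were not analysed here. The group holds 22 and 43 peaks, so intervals of its shares are wide. Nearest-gene names can give a peak at a shared promoter to only 1 of its genes.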

Other observations

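Several enzyme genes, among them some without an assigned peak, had a peak inside or within 1000 bp of their GENCODE gene body that the deposited lists give to a neighbour. The IDH1 promoter, which faces that of PIKFYVE, had an overlapping pair at chr2:208266115-208266325 and chr2:208266106-208266362, with scores of 8.11 and 13.4 at percentiles 74.2 and 84.2, under the name PIKFYVE. PFKFB2 had an overlapping pair in intron 1 of YOD1 (scores 4.34 and 6.99) with 1 TGTTTAC in each. The 3′ end of LDHA had an overlapping pair named for LDHC (scores 4.34 and 8.18), also with 1 TGTTTAC in each.

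The SDHA promoter had a peak in replicate 1 alone, at chr5:217802-218012 with score 8.3 and percentile 75.6, named for CCDC127 and holding 1 TGTTTAC. Replicate 1 had the shorter list, and no replicate 2 peak overlapped this peak. In replicate 2 alone, the MDH2 promoter had a peak named for STYXL1 (score 5.5), and ENO3 had one named for PFN1 (score 6.1). These genes were looked up after their values were seen.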
